A study of Sus scrofa with 70 samples.

Results

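Of 110996 isoforms assembled from full-length Iso-seq reads of boar reproductive glands, 2573 were read in only one of the 2 breeds. An isoform was counted as a member when it had at least 1 full-length read in at least 3 of the 5 libraries of one breed and 0 reads in all 5 libraries of the other. The members were thus chosen by full-length read counts, which are given as a description and are not tested. The BMI-only set held 1523 isoforms of 1319 genes, and the DSE-only set 1050 isoforms of 961 genes. Of 22298 genes in the table, 2135 had a member, and 145 had members of each breed.

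BMI is the Banna mini-pig inbred line, which was derived from Diannan small-ear pigs, and DSE is the Diannan small-ear pig itself, so the breeds share an origin. Boars of both breeds were 12 months old, and neither breed received a treatment. The bulbourethral gland, prostate, vesicular gland, epididymis and testis were each sequenced in 1 Iso-seq library and 3 RNA-seq libraries per breed. The labels do not say which animal gave which library, so p-values measure the spread between libraries and Iso-seq and RNA-seq may share animals.

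A gene gives several isoforms when splicing joins its exons in different ways, or when transcription starts or ends at different places. Splicing removes introns that mostly open with GT and close with AG, and a sequence change at such a site can move, remove or create a junction. Breeds of one species share almost all genes, and allele differences at splice sites are a well known source of isoforms that differ between them. An isoform can carry the same protein as its neighbours, a shortened one, or an early stop that exposes the RNA to nonsense-mediated decay.

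For each breed, the 3 most-read breed-only junctions among the named members on assembled chromosomes are shown from the reference genome Sscrofa11.1, because they are positions at which the breeds' full-length reads differed. A junction of novelGene_3929 with 7 DSE reads lies on an unplaced scaffold and is not shown. Capitals mark the bases missing from the reads for a gap shorter than 50 bases. For longer gaps, capitals mark the first 2 bases of the gap in the donor window and the last 2 in the acceptor window. Those of MANSC1 and SFRP1 were added after their values were seen. The 15-base gap of PTTG1IP is shown from chr13:207494128-207494156 on the minus strand, and the 28-base gap of SFRP1 from chr17:10436767-10436796 on the minus strand. COMMD10 is shown from chr2:120429034-120429053 and chr2:122188130-122188149, STRA6 from chr7:59323651-59323670 and chr7:59324378-59324397, and MANSC1 from chr5:60082458-60082477 and chr5:60082558-60082577, all on the plus strand. For DSE, EIF5A2 is shown from chr13:109511322-109511341 and chr13:109506964-109506983 and ZFAND2A from chr3:761529-761548 and chr3:757404-757423, both on the minus strand. The isoform of ZMYM2 had 2 gaps of 1 base with 4 reads each, of which the first is shown, from chr11:704818-704846 on the plus strand.
PTTG1IP gap, BMI: cagcgacCAAACACGCCGGCGTgcggccc
SFRP1 gap, BMI: aGAGTAGCTCCACTGTGACTCCGGAGCTGt
COMMD10 donor, BMI: aatgggatttGTttcgatat
COMMD10 acceptor, BMI: aaaatacaAGtgtggagttc
STRA6 donor, BMI: ctgaaggcagGTatgtgcgt
STRA6 acceptor, BMI: tcacatctAGagtggccttt
MANSC1 donor, BMI: ctttcccgggGCaaggctcc
MANSC1 acceptor, BMI: agtttagtGAgcgacgtaca
EIF5A2 donor, DSE: tctggacataAAcattatta
EIF5A2 acceptor, DSE: gcagtgacCTggagttcccg
ZFAND2A donor, DSE: ctacaagaagGTaatttgtg
ZFAND2A acceptor, DSE: gtttcttcAGgtgtttaggc
ZMYM2 gap, DSE: ttatccctgagaggGgcccttcgtacaag

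COMMD10, STRA6 and ZFAND2A showed the usual GT and AG at the ends of their gaps, whereas PTTG1IP, SFRP1, MANSC1 and EIF5A2 did not. Whether a short gap was spliced out or is missing from the genome of these animals was not tested.

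Full-length reads summed over the isoforms kept were fewest in the epididymis of DSE, with 231413, and most in that of BMI, with 458697. These sums leave out reads not assigned to an isoform and are not the sequencing depth. In all, 1859379 reads fell in BMI and 1608731 in DSE. RNA-seq markers matched the labelled tissues in most libraries. The summed level of 4 spermatid genes was 23893 to 106965 TPM (transcript abundance scaled to the same total in every library) in testis and at most 961 elsewhere. Vesicular gland secretory genes summed to 294622 to 370524 TPM in that gland, and BMI prostate replicate 2 stood apart with 227665 TPM of them, while the other prostate libraries held at most 14.5. Smaller amounts were found in BMI epididymis replicate 1 (5377 TPM) and DSE epididymis replicate 2 (1068 TPM), and without these the counts given next were 67 and 30, and 66 and 38. DSE epididymis replicate 1 lay farthest out on the first principal component of the gland-centred values, and without it they were 67 and 33. Without the BMI prostate library, 69 BMI-only and 29 DSE-only isoforms passed the test described below, against 68 and 34 with all libraries. Smooth muscle genes in prostate summed to 1077 to 2319 TPM in DSE and 130 to 1418 in BMI, ranges that overlap. In epididymis the mean of RNASE10 was 3436 TPM in BMI and 12.9 in DSE, whereas ADAM7 (1880 and 1394) and CRISP1 (1931 and 1260) were closer. In testis INSL3 was 11904 and 27436. The muscle gene ACTA1 was 74.4 and 234 in bulbourethral gland but 114 and 0 in epididymis. The part of these markers in the results was not tested. In bulk tissue, fewer cells of a type and less RNA per cell cannot be told apart.

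Most members were rare. The median member had 4 reads in either breed, and 547 BMI-only isoforms (35.9%) and 358 DSE-only isoforms (34.1%) had the minimum of 3. At least 10 reads were found for 111 and 32 members, and at least 20 for 28 and 5. Members held 0.536% of all BMI reads and 0.317% of all DSE reads. Reads came from exactly 3 libraries for 1260 and 878 members, and from all 5 for 26 and 14. Just outside the rule stood 1661 and 1196 isoforms with a single read in the other breed, and 7517 and 5889 isoforms read in exactly 2 libraries of one breed, the latter with a median of 2 reads.

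The gene itself was mostly read in the other breed too. This held for 93.3% of BMI-only and 93.0% of DSE-only isoforms, with a median of 88 and 108.5 reads of the gene there. The median member made up 3.57% of its gene's reads in BMI and 3.98% in DSE. No read of the gene in the other breed was found for 102 BMI-only isoforms of 98 genes and 73 DSE-only isoforms of 72 genes. Intergenic models (23 and 34) and models antisense to a known gene (24 and 9) were common among these.

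The glands contributed unequally. BMI-only isoforms were read most often in epididymis (78.2%), followed by vesicular (72.1%) and bulbourethral gland (68.3%), with prostate (50.8%) and testis (49.6%) last. DSE-only isoforms were read most often in bulbourethral gland (71.9%) and prostate (71.6%), followed by epididymis (67.1%), vesicular gland (61.1%) and testis (45.9%). Of the isoforms read in each BMI gland, BMI-only members were 3.05% in vesicular gland, 2.78% in epididymis and 2.75% in bulbourethral gland. In BMI prostate and testis they were 2.24% and 1.73%. The DSE shares were 2.17% in prostate, 2.05% in bulbourethral gland, 1.95% in vesicular gland, 1.91% in epididymis and 1.13% in testis. Epididymis, vesicular and bulbourethral gland formed the most frequent combination in BMI (282 isoforms, 18.5%), and epididymis, prostate and bulbourethral gland that in DSE (165, 15.7%).

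Against 24224 isoforms read in both breeds and in 3 to 5 libraries, members were compared in structure by 95% Wilson intervals, which cover counting error only. Isoforms with splice sites absent from the annotation (the NNC class of SQANTI3) made up 51.8% (49.3 to 54.3) of BMI-only, 44.6% (41.6 to 47.6) of DSE-only and 46.0% (45.4 to 46.7) of the isoforms of both breeds. Isoforms that match only part of a known transcript (incomplete splice match, ISM) made up 9.78% (8.39 to 11.4), 19.2% (17.0 to 21.7) and 15.5% (15.1 to 16.0). In this class the BMI-only share lay below and the DSE-only share above that of the isoforms of both breeds, beyond the intervals. All splice sites were canonical in 84.2% (82.3 to 85.9) of BMI-only and 87.7% (85.6 to 89.6) of DSE-only isoforms, below the 90.4% (90.1 to 90.8) of shared ones. Nonsense-mediated decay was predicted for 24.6% (22.5 to 26.8), 20.9% (18.5 to 23.4) and 19.1% (18.6 to 19.6). At least 60% A just after the 3′ end, the mark of priming inside a transcript, was found in 30.0% (27.8 to 32.4), 38.6% (35.7 to 41.6) and 31.6% (31.0 to 32.2).

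Members were spread over the genome. On the autosomes, chromosome X and the scaffolds, BMI-only isoforms made up 1.08% to 1.80% of a chromosome's isoforms and DSE-only isoforms 0.735% to 1.24%, against 1.37% and 0.946% of all isoforms. Chromosome Y held 1 BMI-only and 4 DSE-only isoforms of 129, a DSE-only share of 3.10% (1.21 to 7.70). The window of 1 Mb with the most BMI-only genes was chr4:1-1000000, which held 12 members of 9 genes among 513 isoforms. For DSE it was chr12:20000001-21000000, which held 10 members of 10 genes among 344 isoforms (2.91%) and 7 BMI-only members of 5 genes besides, and some windows with fewer genes had higher shares, such as 5.88% of 85 isoforms at chr6:18000001-19000000. The DSE-only genes of the chromosome 12 window included STAT3 and STAT5B, which carry cytokine signals to the nucleus, and EZH1, a histone methyltransferase.

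Splice junctions were followed across isoforms to describe which breed-only isoforms also held a breed-only junction. A junction held by a member alone has no read in the other breed by the member rule, so these counts are no test. At least 1 unannotated junction with no read in the other breed was present in 763 BMI-only and 402 DSE-only isoforms. In 317 and 233 others the unannotated junctions were also read in the other breed, in 217 and 167 all junctions were annotated, and for 226 and 248 the deposited annotation held no structure. Of unannotated junctions read in at least 3 libraries, 1121 of 16046 in BMI and 743 of 14256 in DSE were not read in the other breed. With at least 20 reads there were 45 such junctions in BMI and 2 in DSE. Many of those in BMI were of a single model of 23 exons, PB.18201.291 of TMED8 with 75 reads. None of its unannotated junctions had GT and AG at the ends. GT and AG ended 70.8% (68.1 to 73.4) of the BMI-only and 65.0% (61.5 to 68.4) of the DSE-only junctions, against 77.4% (76.8 to 78.1) of junctions of both breeds in 3 to 5 libraries. Gaps under 50 bases, which are too short for a usual intron, made up 1.07% (0.613 to 1.86), 2.29% (1.43 to 3.63) and 0.535% (0.436 to 0.657).

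The RNA-seq libraries gave a second measure of the same isoforms that the rule did not use. TPM rows existed for 1225 BMI-only and 752 DSE-only isoforms. The authors' quantified annotation replaced the 77 and 46 members that fully match a known transcript (full splice match, FSM) by that transcript and had no row for the 149 and 202 ISM members, and a further 72 and 50 had no row. A minimum of 1 TPM in at least 3 of 30 libraries left 630 and 345 members to test and 595 and 407 below it. A member could pass through its own breed alone, which favours a difference, so the counts below are not evidence for the whole set. Differences are DSE minus BMI in log2(TPM + 1), averaged over the 5 glands, from limma with Benjamini-Hochberg adjustment over all 64661 isoforms tested.

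Few of the members differed in RNA-seq. Higher levels in their own breed were called for 68 of 630 BMI-only isoforms (10.8%), where 1.92% of all tested isoforms were called higher in BMI. For DSE-only isoforms the count was 34 of 345 (9.86%), where 1.31% of all were called higher in DSE. At an unadjusted p below 0.05, 142 and 70 members were higher in their own breed, where 8.57% and 5.43% of all isoforms were. Lower levels in their own breed were called for 1 and 2 members. Among members with 1 TPM in at least 3 libraries of each breed, 16 of 361 (4.43%) and 7 of 193 (3.63%) were called, against 1.22% and 0.825% of all isoforms that met the same minimum. The median difference was -0.12 over the BMI-only and 0.10 over the DSE-only members tested, and -0.03 over all isoforms. All 3 libraries of the own breed lay above all 3 of the other in each of the 5 glands for 19 BMI-only (3.02%) and 6 DSE-only isoforms (1.74%), where 0.0959% and 0.0897% of all tested isoforms did so.

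Members were listed above 0 in the other breed about as often as isoforms in general. Of members with a TPM row, 1155 of 1225 (94.3%) and 698 of 752 (92.8%) were above 0 TPM somewhere among the libraries of the other breed, as were 94.9% of all isoforms in DSE and 94.4% in BMI. Members listed at 0 in all 15 libraries of the other breed and at 1 TPM or more in at least 3 of the own numbered 13 (1.06%) and 11 (1.46%), where 0.108% and 0.136% of all isoforms with a TPM row were so.

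Members with 10 or more reads passed the test most often in either breed, whereas the order below that differed between breeds. For BMI-only isoforms with 3 reads, 5 of 206 (2.43%) were called higher in BMI, a share near the 1.92% of all isoforms. With 4 to 5 reads 18 of 229 (7.86%) were called, with 6 to 9 reads 19 of 130 (14.6%), and with 10 or more 26 of 65 (40.0%). In DSE the shares were 11 of 119 (9.24%), 5 of 139 (3.6%), 11 of 73 (15.1%) and 7 of 14 (50%).

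**Figure D1:**
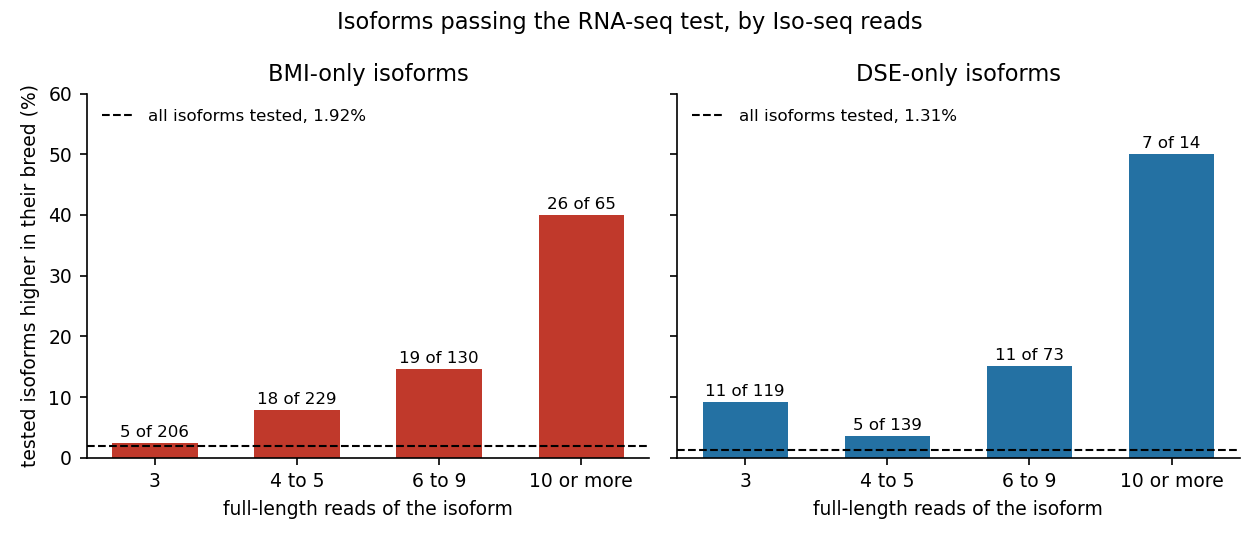
Percent of tested BMI-only (left) and DSE-only (right) isoforms that limma called higher in their own breed, by the number of full-length reads of the isoform. Counts stand above the bars, and dashed lines mark the share among all isoforms tested, 1.92% for BMI and 1.31% for DSE. The bars for 10 or more reads reach 40.0% and 50%.

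The most-read member of all, of PTTG1IP, a membrane glycoprotein that binds securin, did not pass the RNA-seq test. PB.5656.3 had 1054 reads in BMI and none in DSE, of which bulbourethral gland gave 499, epididymis 220, vesicular gland 187, testis 135 and prostate 13. Its 15-base gap was held by 1069 BMI and 0 DSE reads, whereas quantified models whose exon runs across the gap held 140 BMI and 1266 DSE reads. In RNA-seq, PB.5656.3 ranged from 58.5 TPM through a median of 87.5 to 150 in BMI and from 36.2 through 93.4 to 155 in DSE. The breeds overlapped fully. The difference was -0.17 (SE 0.147, n = 15 per breed, limma adjusted p = 0.683). PB.5656.1, which runs across the gap, also ends at another 3′ position and took 1258 of the 1266 DSE reads of the gene, was listed at a median of 0.95 TPM in BMI and 0.609 TPM in DSE. The full-length reads and the short-read assignment placed the DSE transcripts of this gene on different models.

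SFRP1, a secreted inhibitor of Wnt signalling, showed the opposite case. PB.8685.3 carried only 9 of the 88 BMI reads of the gene, 2 in testis, 2 in vesicular gland and 5 in bulbourethral gland. Its level ran from 1.08 TPM through a median of 10.2 to 55.3 in BMI and was listed at 0 in all 15 DSE libraries. No BMI library overlapped with DSE. The difference was -3.54 (SE 0.302, adjusted p = 3.71e-08, limma), on a scale that understates the change of low values. The summed level of the gene did not pass the test (0.85, adjusted p = 0.303, limma). PB.8685.4, read 78 times in BMI and 66 times in DSE, moved the other way, from 0 through 0.638 to 7.28 TPM in BMI and from 0 through 16.1 to 154.04 in DSE (3.13, SE 0.496, limma adjusted p = 0.000329). In BMI, PB.8685.3 therefore took 86.7% of the gene's TPM but 9 of its 88 full-length reads.

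MANSC1, a membrane protein with a MANSC domain, differed in both measures. PB.14720.4 had 88 reads, 78 of them in bulbourethral gland. It ran from 0.973 TPM through 8.52 to 73.2 in BMI, and 14 of 15 DSE libraries were at 0, the other at 0.478. All BMI libraries lay above all DSE libraries. The difference was -3.49 (SE 0.137, adjusted p = 3.67e-14, limma), whereas the gene did not pass (0.31, adjusted p = 0.366). PB.14720.1, read 122 times in BMI and 169 times in DSE, was higher in DSE by 3.15 (SE 0.449, limma adjusted p = 8.71e-05).

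**Figure D2:**
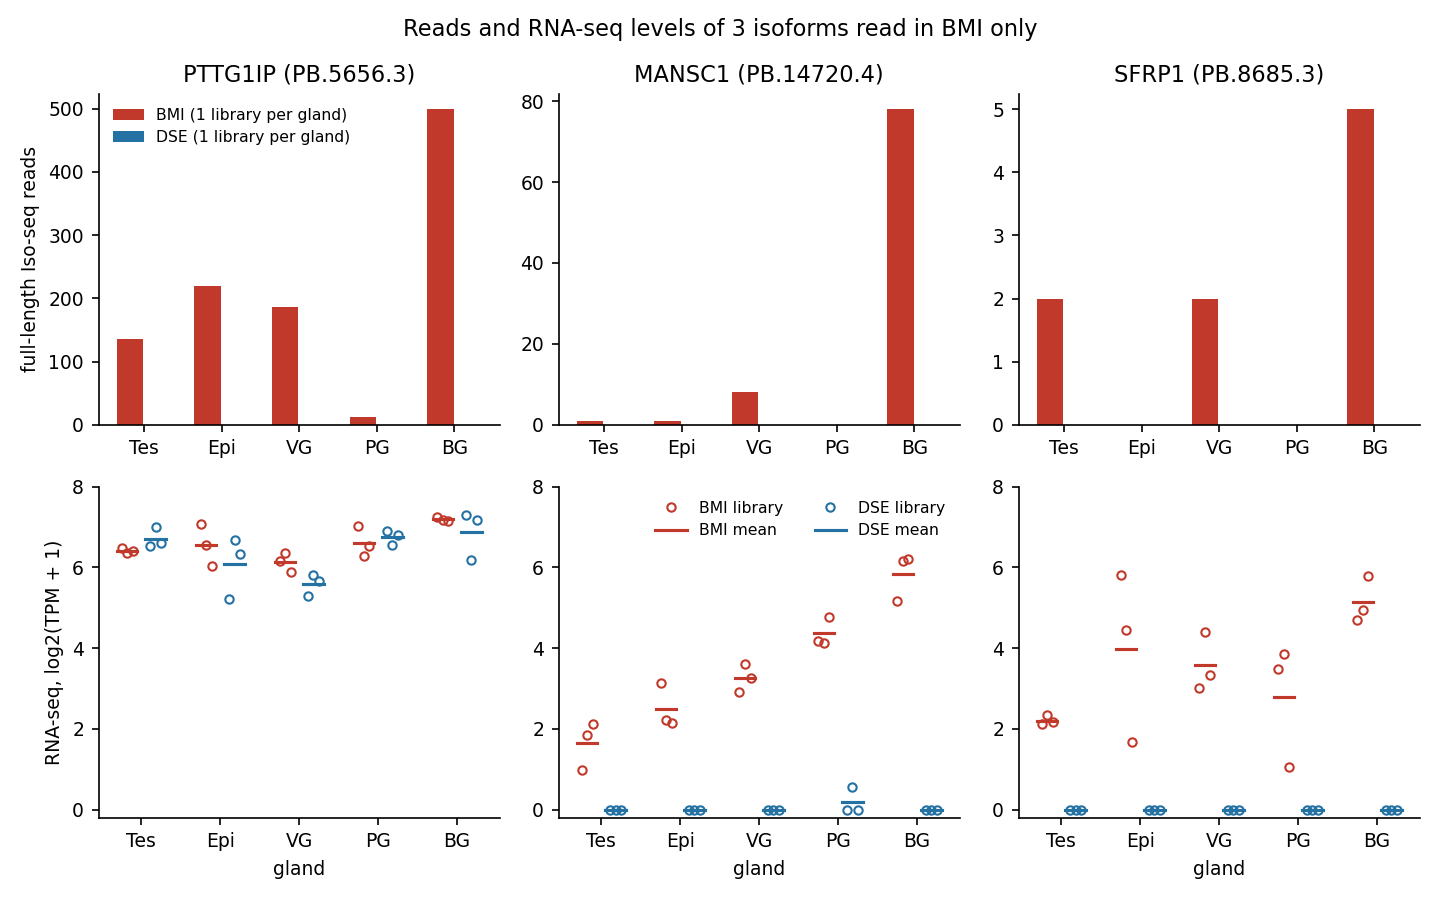
Full-length Iso-seq reads (top, bars, 1 library per breed and gland) and RNA-seq levels as log2(TPM + 1) (bottom, circles for libraries and lines for means of 3) of 3 BMI-only isoforms by gland. For PTTG1IP the RNA-seq levels of the breeds overlap, while for MANSC1 14 and for SFRP1 all 15 DSE libraries lie at 0.

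The 4 other BMI-only isoforms among the 6 with the most reads were either not called or not tested as isoforms in RNA-seq, whereas the next 3 by reads, of RINT1 (72 reads), MIGA1 (70) and CDC42SE2 (64), were called higher in BMI and are named after their values were seen. PB.11151.72 of COMMD10, an endosomal sorting protein, had 456 reads and a junction over a gap of 1759096 bases, which 474 BMI reads held. It ran from 0 through 2.33 to 11.2 TPM in BMI and from 0 through 2.74 to 8.35 in DSE, which overlapped (-0.17, limma adjusted p = 0.897). PB.17818.4 of STRA6, the cell-surface receptor for retinol uptake, had 182 of its 187 reads in epididymis. The gene had 406 reads in BMI and 7 in DSE, but PB.17818.4 had a median of 0 TPM in either breed and at most 5.34 in BMI and 2.65 in DSE. PB.18201.291 of TMED8, of a family of vesicle cargo proteins, had 75 reads and never exceeded 0.312 TPM, so it stayed below the minimum. Its unannotated junctions had letters other than GT and AG at their ends, and 80% A followed its 3′ end. Whether this model is aligned correctly was not tested. PB.11943.5 of DNAAF8, an assembly factor of the dynein arms of cilia and flagella, matched a known transcript and had 119 of its 127 reads in testis. That transcript was quantified at 29.4, 84.6 and 88.5 TPM in the BMI testis libraries and at 0, 5.69 and 31.5 in those of DSE, so the highest DSE library overlapped with the lowest BMI one. The DSE library at 5.69 TPM had the lowest spermatid sum of the testes (23893 TPM) and the one at 0 the highest (106965 TPM). The part of this in the values was not tested.

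Further BMI-only isoforms were named for the size of their difference. TK2, the mitochondrial thymidine kinase, had PB.15392.1 at 1.21 through 3.33 to 5.94 TPM in BMI and at 0 in all 15 DSE libraries (-2.02, SE 0.115, limma adjusted p = 2.75e-11). GIGYF1, a partner of growth factor receptor adaptors, had PB.11638.3 at 1.12 through 3.82 to 7.44 TPM in BMI and at 0 in all DSE libraries (-2.20, SE 0.140, limma adjusted p = 1.89e-10). FTSJ1, a methyltransferase of tRNA, had PB.21249.7 at 0.976 through 5.66 to 7.69 TPM in BMI and at most 0.409 in DSE (-2.47, SE 0.142, limma adjusted p = 3.17e-11). In these 3 isoforms no BMI library overlapped with DSE, and none of the 3 genes passed the test as a whole.

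TRPT1, a tRNA phosphotransferase, differed by -2.27 for PB.9976.3 (SE 0.268, limma adjusted p = 6.18e-06), with 0 through 6.23 to 14.0 TPM in BMI and 0 through 0 to 2.48 in DSE, and its gene was lower in DSE as well (-0.71, adjusted p = 0.0170). Most unannotated junctions of PB.9976.3 had letters other than GT and AG at their ends, and 70% A followed its 3′ end. Whether this model is aligned correctly was not tested. ENSSSCG00000042682, a gene without a symbol, was the only BMI-only case called lower in BMI (0.40, SE 0.0888, limma adjusted p = 0.0105). With the glands averaged per replicate number, as described further on, that p was 0.409.

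Several of the DSE-only isoforms with the largest RNA-seq differences had few reads. EEF1AKMT1, a lysine methyltransferase of an elongation factor, had PB.2816.15 with 3 reads, and it ran from 2.37 through 6.95 to 15.04 TPM in DSE and reached at most 0.311 in BMI. The breeds did not overlap (3.04, SE 0.150, limma adjusted p = 3.19e-12). EIPR1, a partner of vesicle tethering complexes, had PB.12768.29 with 3 reads at 0.488 through 2.06 to 6.92 TPM in DSE and at most 0.204 in BMI (1.71, SE 0.0996, limma adjusted p = 4.09e-11). An intergenic model on an unplaced scaffold, PB.20662.4 of novelGene_3929 with 7 reads, ran from 1.89 through 5.92 to 16.5 TPM in DSE and from 0 through 0.149 to 0.841 in BMI (2.58, SE 0.155, limma adjusted p = 7.18e-11). These 3 were separated in all libraries.

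CCDC47, a protein of the endoplasmic reticulum that helps fold membrane proteins, had PB.3533.133 with 3 reads at 6.20 through 12.9 to 19.5 TPM in DSE and at 0 through 4.67 to 15.8 in BMI, which overlapped (1.51, SE 0.228, limma adjusted p = 0.000189, and 0.0681 with means per replicate number). The fusion model PB.17410.4 of ENSSSCG00000001341 and ENSSSCG00000042638 lay at 0 through 2.24 to 9.50 TPM in DSE and at 0 in all BMI libraries (1.86, SE 0.240, limma adjusted p = 2.15e-05). ENSSSCG00000002825 had PB.15442.4 with 14 reads at 0 through 1.54 to 68.9 TPM in DSE and at most 1.53 in BMI (1.68, SE 0.299, limma adjusted p = 0.00120), and its gene was higher in DSE as well (1.05, adjusted p = 0.000358, limma).

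The most-read DSE-only isoforms differed less in RNA-seq or were not quantified as isoforms. PB.2748.62 of AKR1C8, an aldo-keto reductase of steroid metabolism, matched a known transcript and had 128 reads in testis, 23 in prostate and 4 in bulbourethral gland. The gene had 192 reads in DSE and 8 in BMI. The known transcript lay at 175, 1087 and 262 TPM in DSE testis and at 111, 127 and 0 in BMI testis, so all DSE values lay above all BMI values there. The library at 1087 TPM, DSE testis replicate 2, had the lowest spermatid sum of the testes, 23893 TPM against 69373 to 106965, and the part of this in the value was not tested. In addition, the aldo-keto reductases of this family are near-identical copies and their values are uncertain. PB.1695.45 of IL33, an alarm cytokine released by damaged epithelium, had 18 reads, and lay at 0 through 1.55 to 18.5 TPM in DSE and at 0 in all BMI libraries (1.44, SE 0.236, limma adjusted p = 0.000492, and 0.151 with means per replicate number). PB.4985.1 of EIF5A2, a translation factor, had 24 reads and lay at 0 through 0.540 to 2.45 TPM in DSE and at 0 in all BMI libraries (0.66, SE 0.131, limma adjusted p = 0.00406, and 0.298 with means per replicate number). PB.7564.14 of DNAJC10, a disulfide reductase of the endoplasmic reticulum, had 33 of its 40 reads in bulbourethral gland and no TPM row, and the 14-base gap of this gene was held by 56 BMI and 678 DSE reads. VPS33A, of vesicle fusion, and PDZRN3, a ubiquitin ligase, followed with 20 and 17 reads of ISM isoforms, which were not quantified.

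**Figure D3:**
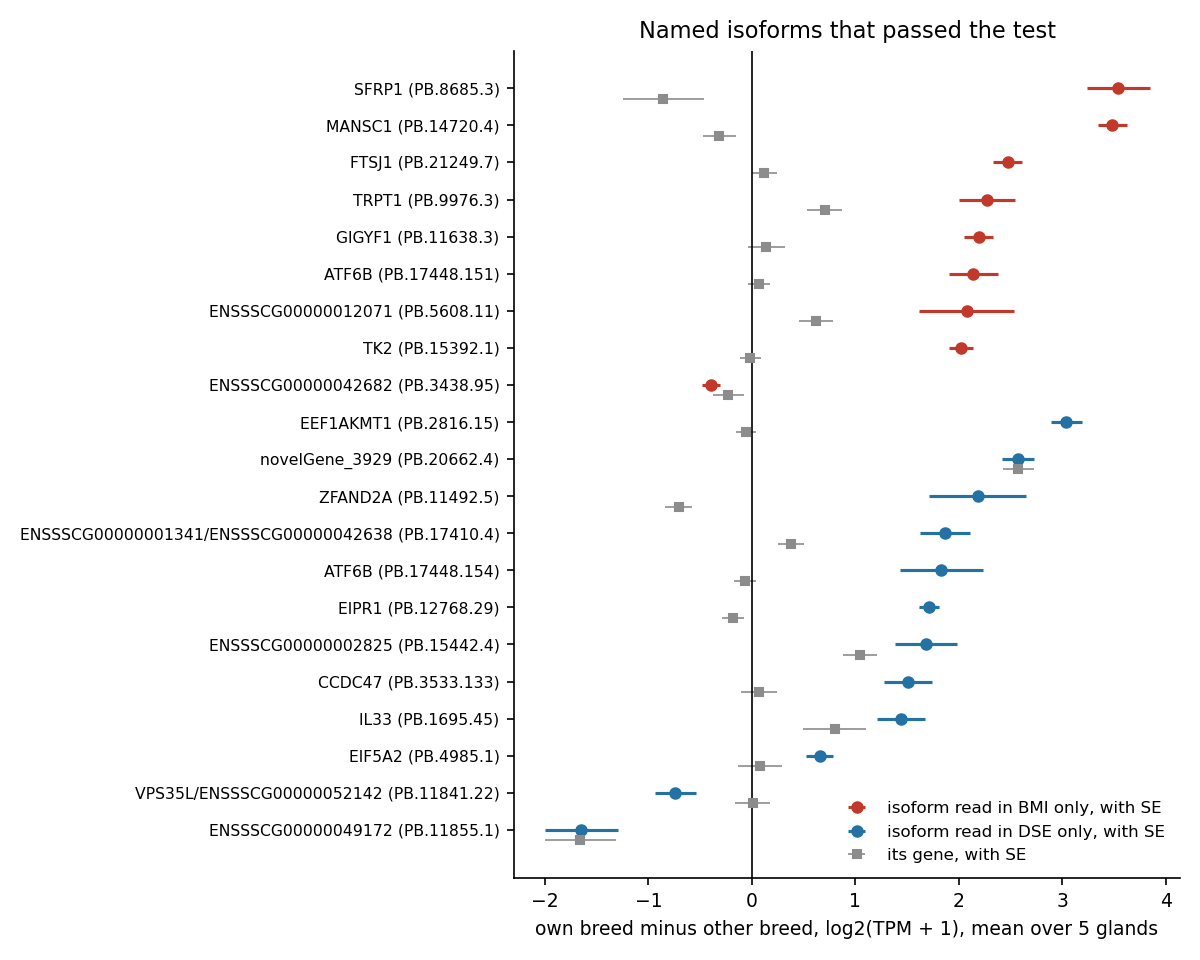
Difference between the own and the other breed in log2(TPM + 1), averaged over 5 glands, for the named BMI-only (red) and DSE-only (blue) isoforms that passed the limma test, and for their genes (grey squares). Bars are standard errors. The isoforms reach 3.54.

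Several differences followed the replicate number of the libraries across glands. PB.17448.154 of ATF6B, a transcription factor of the unfolded protein response, lay at 2.18 to 9.87 TPM in DSE number 1 and 2.80 to 11.2 in DSE number 3, and at 0 in all 5 libraries of DSE number 2 and all 15 of BMI (1.83, SE 0.400, limma adjusted p = 0.00863). PB.11492.5 of ZFAND2A, a zinc finger protein of the proteasome stress response, lay at 4.72 to 14.1 and 6.15 to 18.5 TPM in DSE numbers 1 and 3 and at 0 throughout number 2 (2.18, SE 0.473, limma adjusted p = 0.00815). In both genes the number 2 libraries of DSE were thus at 0 like nearly all BMI libraries. The gene ZFAND2A was lower in DSE as a whole (-0.71, adjusted p = 0.00235, limma).

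The same was seen in BMI and in the other direction. PB.5608.11 of ENSSSCG00000012071 was at most 0.169 TPM in all glands of BMI number 1, at 0.565 to 16.5 in numbers 2 and 3, and at 0 in DSE (-2.08, SE 0.461, limma adjusted p = 0.00985), and its gene was lower in DSE too (-0.62, adjusted p = 0.0331, limma). PB.11855.1 of ENSSSCG00000049172, a DSE-only noncoding isoform with 3 reads, lay at 35.9 to 102 TPM in BMI, although no BMI read was found, at 38.0 to 115 in DSE number 1, and at 6.47 to 20.5 in DSE numbers 2 and 3. It was called lower in DSE (-1.65, SE 0.353, limma adjusted p = 0.00740). The fusion model PB.11841.22 of VPS35L and ENSSSCG00000052142 was also called lower in DSE (-0.74, adjusted p = 0.0421, limma), and in 24 of 30 fits without 1 library it was not.

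A pattern of 0 in all 5 libraries of some numbers and above 0 in all libraries of the others was found in 4 of 345 tested DSE-only isoforms (1.16%) and 32 of 64661 isoforms in DSE (0.0495%), and in 0 of 630 BMI-only isoforms and 13 of all isoforms in BMI (0.0201%). All 4 were called higher in DSE. Besides ATF6B and ZFAND2A they were of UFSP2, a protease of the ubiquitin-like modifier pathway, and WFS1, wolframin, named after their values were seen. Whether libraries that share a number come from 1 animal is not given in the labels. With the 5 glands averaged for each breed and number, 3 against 3, limma called 24 BMI-only and 9 DSE-only isoforms in their own breed, where 0.144% and 0.122% of all isoforms were called. ATF6B PB.17448.154 (adjusted p = 0.476), ZFAND2A (0.482), ENSSSCG00000012071 (0.463), ENSSSCG00000049172 (0.466), ENSSSCG00000042682 (0.409), EIF5A2 (0.298), VPS35L (0.293), IL33 (0.151) and CCDC47 (0.0681) did not pass limma in that fit. SFRP1 (0.0115), MANSC1 (0.000777), TK2 (0.00854), FTSJ1 (0.00854), GIGYF1 (0.0130), EEF1AKMT1 (0.00914) and EIPR1 (0.00644) passed in it.

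**Figure D4:**
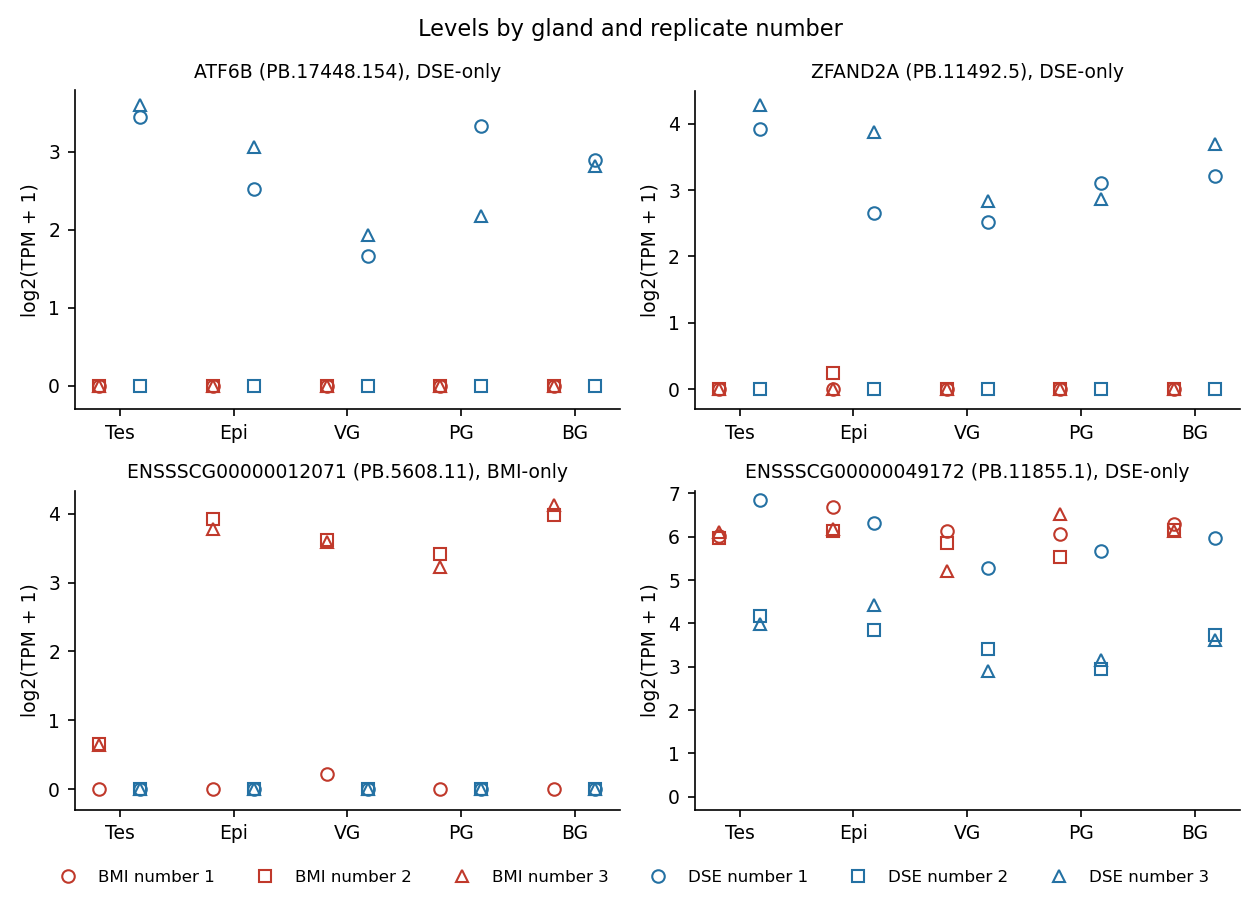
RNA-seq level as log2(TPM + 1) of 4 members in each library, by gland, breed (colour) and replicate number (symbol). DSE number 2 lies at 0 in all 5 glands for ATF6B and ZFAND2A, BMI number 1 lies near 0 for ENSSSCG00000012071, and for ENSSSCG00000049172 DSE number 1 lies far above DSE numbers 2 and 3 in all glands.

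ATF6B was the only gene with called members of both breeds. Its BMI-only isoform PB.17448.151 had 20 reads and a 165-base gap with GT and AC at its ends, and lay at 0 through 8.51 to 17.6 TPM in BMI and at 0 through 0.732 to 3.25 in DSE (-2.14, SE 0.237, limma adjusted p = 2.37e-06). The gene as a whole did not pass (-0.07, adjusted p = 0.852), nor did PB.17448.153, its most-read isoform in both breeds (0.38, adjusted p = 0.235).

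The host genes mostly did not move with their members. Of host genes tested, 23 of 1089 (2.11%) were called higher in BMI for BMI-only isoforms, where 1.97% of all genes were, and 15 of 700 (2.14%) were called higher in DSE for DSE-only isoforms, where 1.36% of all genes were. The BMI share is near the background. The gene of a called member was called the same way in 11 of 68 (16.2%) and 5 of 34 cases (14.7%), against 29.1% and 28.6% for all isoforms called. An isoform's share of its gene's TPM, tested by limma with a minimum difference of 10 percentage points, was higher in the own breed for 20 of 948 BMI-only and 10 of 579 DSE-only isoforms, where 0.212% and 0.233% of all isoforms tested were called. SFRP1 PB.8685.3 had the largest difference of these, 86.7% in BMI and 0 in DSE (limma adjusted p = 1.17e-11). Shares of MANSC1 PB.14720.4 were 39.6% and 0.0456%.

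By gland, the shares of members called stood apart from the background least in testis for BMI. There 36 of 630 BMI-only isoforms (5.71%) were called higher, where 5.61% of all isoforms were. The spermatid sum of DSE testis replicate 2 was 23893 TPM against 69373 to 106965 in the other testes, and without that library 26 BMI-only and 13 DSE-only isoforms were called in testis. The count was 30 for epididymis (4.76%, all isoforms 0.368%), 24 for vesicular gland (3.81%, 0.266%), 23 for bulbourethral gland (3.65%, 0.238%) and 22 for prostate (3.49%, 0.125%). For DSE-only isoforms it was 17 for testis (4.93%, 1.33%), 13 for epididymis (3.77%, 0.384%), 10 for bulbourethral gland (2.90%, 0.22%), 5 for prostate (1.45%, 0.353%) and 2 for vesicular gland (0.580%, 0.116%). At least 1 gland was called for 59 BMI-only isoforms (9.37%), where 6.31% of all isoforms were, and for 26 DSE-only isoforms (7.54%), where 2.1% were. A fit of each gland alone called 21 and 12 in at least 1 gland, with 9 and 3 in testis. The counts rest on few libraries, since without BMI testis replicate 1 those of testis were 19 and 10, without BMI testis replicates 2 or 3 that of BMI was 21 or 23, and with 1 library left out the BMI-only counts went down to 11 in vesicular gland, 13 in prostate and 14 in bulbourethral gland and the DSE-only count to 4 in bulbourethral gland. The breed difference varied between glands for 11 (1.75%) and 9 members (2.61%), near the 2.38% of all isoforms. Of the members called over all glands, 55 of 68 and 25 of 34 had the same direction in all 5 (80.9% and 73.5%), as did 46.2% of all isoforms called higher in BMI and 64.6% of those called higher in DSE. The call rests on the average of the same 5 values.

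**Figure D5:**
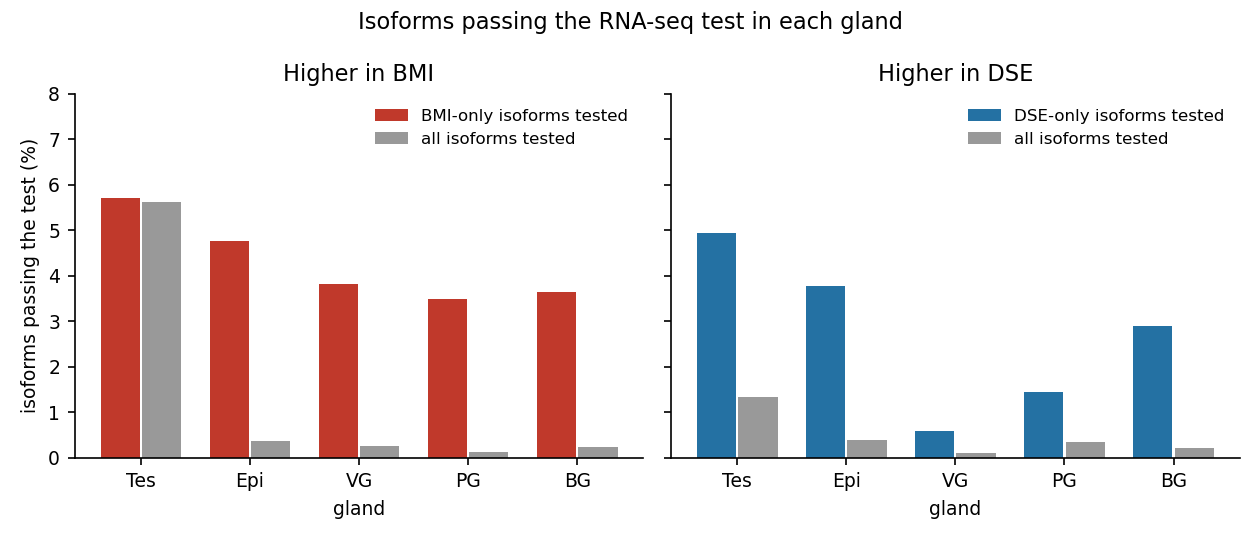
Percent of tested BMI-only (left, red) and DSE-only (right, blue) isoforms called higher in their own breed by limma in each gland, beside all isoforms tested (grey). In testis the BMI-only share of 5.71% lies close to the 5.61% of all isoforms, and in the other glands the members' bars are several times taller.

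Calls were most frequent where the isoform held a breed-only junction. They numbered 54 of 376 tested BMI-only isoforms (14.4%) and 24 of 174 DSE-only isoforms (13.8%) with such a junction. With annotated junctions alone they were 7 BMI-only isoforms (6.54% of those tested) and 7 of 86 DSE-only isoforms (8.14%), and with unannotated junctions also read in the other breed 7 of 147 (4.76%) and 3 of 85 (3.53%). These classes were not tested against each other.

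No gene had more than 4 members of a breed. In BMI 7 genes had 4, namely COMMD10, STRA6, SETD5, a chromatin regulator, CTTN, the actin-binding cortactin, PWWP3B, SEC31A, of the coat of secretory vesicles, and TXNDC11, a thioredoxin-domain protein. In DSE, DNAJC10 had 4 members, and NDRG4, SEC31A, STAM2, of endosomal sorting, ZMYM2, a zinc finger protein, and a fusion model of ENSSSCG00000060550 and HBS1L had 3 each. TXNDC11 and the fusion model tie with the others and were added after their values were seen. Of the members of these genes that were tested, 1 passed in limma over the 5 glands, PB.11874.96 of TXNDC11 with 6 reads (-1.29, SE 0.0761, limma adjusted p = 5.16e-11). PB.9890.103 of CTTN lay at 0 through 1.40 to 3.26 TPM in BMI and 0 through 0.399 to 2.72 in DSE (-0.47, adjusted p = 0.201, limma), and PB.15372.8 of NDRG4 at 0.785 through 8.31 to 106.9 TPM in DSE and 1.52 through 11.5 to 73.7 in BMI (-0.15, adjusted p = 0.891, limma).

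Members of 6 gene lists are read against the 1.37% of all isoforms that were BMI-only and the 0.946% that were DSE-only. Of 378 isoforms of detoxification enzymes 10 were BMI-only (2.65%) and 10 DSE-only (2.65%), with 2 and 5 tested, and PB.4004.38 of ALDH3A2, a fatty aldehyde dehydrogenase, was called higher in BMI (-0.77, SE 0.173, limma adjusted p = 0.0115). That list was drawn up by gene name. Whether each match acts in detoxification was not checked, as for ALDH18A1 and CYP20A1 among the DSE-only members. CYP2E1, an ethanol-oxidizing cytochrome, had PB.6950.8 at a median of 8.58 TPM in BMI and 9.36 in DSE (-0.15, limma adjusted p = 0.749). Of 1232 isoforms of splicing regulators 22 were BMI-only (1.79%) and 17 DSE-only (1.38%), with 6 and 3 tested, and PB.10811.31 of HNRNPH1, which binds G-rich RNA, was called higher in BMI (-1.35, SE 0.346, limma adjusted p = 0.0295). SRSF7, a serine- and arginine-rich splicing factor, had PB.12511.88 at a difference of -0.75 (limma adjusted p = 0.323).

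Of 845 isoforms of cilium and flagellum genes 5 were DSE-only (0.592%) and 0 BMI-only, but the list, which was drawn up by gene name, leaves out the BMI-only members of DNAAF8 and ODAD4, which also act in cilia. Of these 3 were tested and 0 called by limma, with IFT122, of transport along the axoneme, at 0.17 (adjusted p = 0.895, limma), and 0 had an unadjusted p below 0.05. Of 128 isoforms of the interferon list 4 were DSE-only (3.13%), of GBP1, IFI44L and RSAD2, of which 1 was tested and 0 were called by limma. PB.16765.1 of IFI44L lay at a difference of 0.18 (adjusted p = 0.468, limma), and its unadjusted p was not below 0.05. Of 42 isoforms of antigen presentation 1 was a member, of CD74 in DSE (2.38%), which was below the minimum. The only match among 331 isoforms of the list of seminal plasma proteins was CSTPP1 (0.302%), a DSE-only isoform of a gene that is no cystatin and was caught by its name.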

How the data were processed

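For Iso-seq the authors deposited counts of full-length reads, made by clustering, alignment to Sscrofa11.1, collapsing into isoforms and SQANTI3 classification against Ensembl release 107, and the percent of A after each 3′ end, which SQANTI3 reads from the genome, is as deposited. The RNA-seq values are TPM, deposited by the authors from salmon (Salmon 1.9.0 in the submitters' processing notes) on a merged annotation. The small RNA table was not used here. Members and gene lists were chosen with earlier results of these data known. Named are the 6 most-read members and 5 genes with most members per breed, up to 8 called higher and 4 lower in their own breed, at most 4 of each list, and junctions with most reads.

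Libraries were grouped by breed and gland. limma 3.58.1 (R 4.3.3) was fitted to log2(TPM + 1) with 10 group means, after a minimum of 1 TPM in 3 libraries, and called at an adjusted p below 0.05. Genes were sums of their isoforms, and shares needed 1 TPM of the gene in every library and 10 points. Junctions absent from the annotation were summed over isoforms outside FSM and ISM. TPM values carry no depth, and read totals of the RNA-seq libraries were not used here. No libraries were identical (r of log2 values within groups 0.722 to 0.945). On simulated data for the breed difference (64661 isoforms), planted log2 differences of 1 and 2 were recovered in 55% and 93%. Alternatives were another pseudocount, filter, scaling and minimum difference, replicate blocks, a principal component and leaving out each library. Python 3.11.15, pandas 2.3.3, pysam 0.24.0 and matplotlib 3.10.9 were used.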

Additional observations from a re-analysis of the deposited data

Results flagged for a closer look

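The breed difference of 3 named members varied between glands by the interaction test of limma. In these the other breed reached at most 0.478 TPM for MANSC1, 0.204 for EIPR1 and 1.53 for ENSSSCG00000002825. The differences therefore mostly follow the level of the own breed in each gland. For MANSC1 PB.14720.4 (adjusted p = 6.11e-06) the difference of DSE minus BMI in log2(TPM + 1) was -5.84 in bulbourethral gland, -4.18 in prostate, -3.26 in vesicular gland, -2.50 in epididymis and -1.65 in testis, so the direction was the same in all. For EIPR1 PB.12768.29 (adjusted p = 0.00479) it was 1.33, 1.62, 0.90, 1.88 and 2.83 in the same order of glands. For ENSSSCG00000002825 PB.15442.4 (adjusted p = 0.0333) it was 2.67 in testis, 4.17 in epididymis and 1.58 in bulbourethral gland, with 0 in vesicular gland and prostate.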

How the results depend on the processing

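The member rule sets the number of members. With 2 or more libraries there were 9040 BMI-only and 6939 DSE-only isoforms, with 4 or more 263 and 172, with 2 reads in each library 111 and 53, and with at most 1 read in the other breed 3184 and 2246. Without 1 gland there were 803 to 1199 and 635 to 804.

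Calls over the 5 glands (68 BMI-only, 34 DSE-only) fell to 36 and 15 with a log2 difference of at least 1, and to 24 and 9 in the replicate block of 3 against 3. With the replicate number as a term, a replicate block, there were 66 and 36. Numbers were not taken to pair breeds, since same-numbered libraries of a gland deviated together with a median r of -0.063 and over 0.1 in 3 of 15 pairs. Without 1 library there were 58 to 73 and 29 to 38, in host genes 17 to 34 and 10 to 21, in shares 20 to 22 and 8 to 11, in the interaction 9 to 15 and 6 to 12, and in at least 1 gland 45 to 65 and 22 to 33.

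A fit of each gland alone called 21 and 12 in at least 1 gland. In it BMI-only calls were 9 in testis, 7 in prostate, 5 in epididymis, 5 in bulbourethral gland and 4 in vesicular gland, and DSE-only calls 6 in prostate, 5 in bulbourethral gland, 3 in testis, 2 in vesicular gland and 1 in epididymis. A pseudocount of 0.1 gave 21 BMI-only calls in testis, and 8 DSE-only calls in vesicular gland and 9 in prostate. Without 1 library, calls were 19 to 38 (BMI) and 10 to 19 (DSE) in testis, 25 to 35 and 11 to 17 in epididymis, 11 to 27 and 2 to 5 in vesicular gland, 13 to 24 and 4 to 8 in prostate, and 14 to 26 and 4 to 11 in bulbourethral gland. The lowest testis counts came without BMI replicate 1, the lowest vesicular gland counts of BMI without DSE replicates 1 or 3, and the lowest prostate count of BMI without DSE replicate 1.

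Share calls (20 and 10) were 45 and 23 with no minimum difference, and 5 for BMI-only with 5 TPM of the gene in every library. In 1254 comparisons of named members, no member that was called in the main or the other fit changed direction. The direction of members called in neither fit was not followed. In 38 comparisons a member was no longer called, 9 of these in the fit of 3 against 3 and the other 29 for VPS35L PB.11841.22. The causes were not tested. Most members have too few reads to show absence in the other breed.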

Other observations

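Several members outside the rule for named genes took a large share of their gene's TPM in their own breed, and they are named here after their values were seen. PB.20191.9 of RINT1, a vesicle tethering protein, had 72 reads and took 52.9% of its gene in BMI and 3.75% in DSE (limma adjusted p = 1.13e-07). Another BMI-only isoform of RINT1, PB.20191.3, was lower in BMI, at 30.1% against 54.1% (limma adjusted p = 0.0355). PB.16765.59 of MIGA1, which acts in mitochondrial fusion, had 70 reads and took 46.3% and 4.15% (limma adjusted p = 1.45e-10). PB.12741.7 of ADAM17, a protease that sheds cell-surface proteins, took 23.2% in BMI and 0.0573% in DSE. In CDC26, a subunit of the anaphase-promoting complex, 2 BMI-only isoforms took 30.2% and 29.1% in BMI and 2.24% and 3.64% in DSE. In DSE, PB.7332.1 of CD302, a lectin receptor, took 30.5% against 0.297% (limma adjusted p = 0.0256). None of these genes passed the test as a whole.

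Members of genes with no full-length read in the other breed were tested in 45 BMI and 20 DSE cases, and 7 (15.6%) and 1 (5%) of them were called higher in their own breed, against 10.8% and 9.86% of all members tested and 1.92% and 1.31% of all isoforms.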
